A study of Rattus norvegicus with 12 samples.

Results

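Noncoding transcripts at 5 genes of thyroid hormone signalling were examined in fetal rat lumbosacral spinal cord: Thra, which encodes a thyroid hormone receptor, the corepressor genes Ncor1 and Hr, and the hormone-responsive genes Klf9 and Reln. Transcripts were taken by locus name from a list of 10 pathway genes. The names gave 9 of the 22591 transcripts in the lncRNA table: 3 at Ncor1, 2 at Thra, 2 at Hr, 1 at Klf9 and 1 at Reln. No transcript of the table carried the name of Thrb, Dio2, Dio3, Nrgn or Med1. A locus name says where a transcript lies and does not make it the gene's messenger RNA, so nothing below is a level of the receptor or corepressor messages.

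Tissue came from Wistar fetuses at embryonic day 19. The ARM group, with anorectal malformations induced by ethylenethiourea (ETU), had 3 lncRNA libraries and the normal group had 3. ETU is known to block thyroid peroxidase, the enzyme that makes thyroid hormone, and no hormone level was analysed here. By the labels all ARM samples were ETU-induced and no normal sample was, so effects of ETU and of the malformation cannot be told apart. The labels do not say whether libraries came from separate fetuses or litters or from pools, so every p-value reflects only variation among these 6 libraries.

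Thyroid hormone crosses into neural tissue and binds nuclear receptors that sit on DNA with or without hormone. Without hormone the receptors recruit corepressors such as NCoR1, which brings in a histone deacetylase, and hormone exchanges these for coactivators. In the developing nervous system the hormone times neuronal migration, synapse formation and myelination. Reelin, the product of Reln, is a secreted glycoprotein that guides migrating neurons, including preganglionic neurons of the spinal cord. The Thra gene makes a hormone-binding and a non-binding receptor form, and its 3′ end lies tail to tail with Nr1d1, a nuclear receptor gene of the circadian clock transcribed from the opposite strand.

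The lncRNA libraries held 3285614 to 3721901 counts in ARM and 3428655 to 3865088 in normal (two-sided exact permutation p = 0.4, where 3 libraries against 3 cannot go below 0.1). Levels are given as CPM, counts per 1000000 of the scaled lncRNA counts of a library. The limit that a count of 0 allows was set at 3 counts. Per 1000000 of the unscaled counts this lay at 0.806 to 0.913 in ARM libraries and 0.776 to 0.875 in normal libraries. The neuronal marker list (6 of 10 genes had a transcript) summed to 335.6 to 368 CPM in ARM and 282 to 330.2 CPM in normal, without overlap. Of single tested transcripts 7.29% had every ARM library above every normal one, and no such share was taken for sums. Of the 6 tested neuronal transcripts 4 had higher and 2 lower estimates, and 0 were called. At an unadjusted edgeR p under 0.05 there was 1 of these 6, against 5.98% of all tested transcripts. Elavl3.b, at 171 ± 15.5 CPM in ARM and 137 ± 30.8 CPM in normal (SD, n = 3 each), overlapped between groups (edgeR adjusted p 0.865). Astrocyte and progenitor markers (4 of 11 genes) summed to 116 to 132 CPM in ARM and 130 to 132 CPM in normal, and oligodendrocyte lineage markers (4 of 9) to 33.4 to 35.5 CPM in ARM and 31.5 to 42.7 CPM in normal. No gene of the motor neuron list had a transcript in the table, so that identity could not be checked. Transcripts at skeletal muscle genes (2 of 8) summed to 1.13 to 1.83 CPM in ARM and 0 to 0.543 CPM in normal, at liver genes (1 of 6) to 0 to 0.283 CPM in ARM and 0 to 1.19 CPM in normal, and at cartilage genes (2 of 5) to 11.2 to 54.3 CPM in ARM and 1.08 to 17.9 CPM in normal. Sensory ganglion markers (3 of 6) summed to 532 to 588 CPM in ARM and 426 to 560 CPM in normal. Of their 3 tested transcripts 2 had higher and 1 a lower estimate (median log2 fold change 0.06), and 1 was called. This was Pou4f1.a, at a sensory neuron transcription factor gene, with 163, 216 and 184 counts in ARM and 11, 5 and 18 in normal (log2 fold change 4.06, SE 0.40, edgeR adjusted p 0.0281). Microglial markers (3 of 6) summed to 5.34 to 6.41 CPM in ARM and 2.43 to 5.04 CPM in normal. Endothelial, meningeal and red blood cell lists overlapped between groups. The part of these markers in the results below was not tested. In bulk tissue fewer cells of a type and less RNA per cell cannot be told apart.

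The promoters of Thra and Reln, the loci with the best measured transcripts, are shown to give the sequence from which each gene is transcribed. They come from RefSeq on build GRCr8, which may not be the build of the table, so no transcript was placed against them. Each window runs from 250 bases before the start site to 50 after, and capitals mark the 50 bases after it. Of the 2 Thra windows in RefSeq the upstream one is printed. It is chr10:84197891-84198190, and the Reln window is chr4:13628318-13628617, both on the plus strand.
Thra: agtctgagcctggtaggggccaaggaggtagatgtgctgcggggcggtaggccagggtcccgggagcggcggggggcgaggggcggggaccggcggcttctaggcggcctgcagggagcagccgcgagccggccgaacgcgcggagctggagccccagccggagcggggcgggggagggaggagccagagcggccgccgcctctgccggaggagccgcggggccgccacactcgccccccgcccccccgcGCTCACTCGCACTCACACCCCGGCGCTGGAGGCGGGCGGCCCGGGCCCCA
Reln: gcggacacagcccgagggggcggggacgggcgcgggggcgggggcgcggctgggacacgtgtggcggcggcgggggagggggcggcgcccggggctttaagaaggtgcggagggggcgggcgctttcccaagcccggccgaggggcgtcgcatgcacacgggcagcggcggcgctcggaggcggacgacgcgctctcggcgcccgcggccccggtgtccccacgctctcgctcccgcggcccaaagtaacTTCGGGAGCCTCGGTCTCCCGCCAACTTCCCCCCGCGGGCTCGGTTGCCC
G and C made up 79.7% of this Thra window, 46.3% of the other Thra window and 79.0% of the Reln window. The receptors' half-site, AGGTCA, was searched on both strands in the windows of the 10 genes. The RefSeq table has 9 windows for 8 of them, 2 of these at Thra, and no half-site lies in any of the 9. Over all promoter windows of 300 bases 5415 of 33469 hold one (16.2%), and 2 of these hold it as a direct repeat spaced by any 4 bases, the classic form of the element. The absence says only that these letters are not in these windows.

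The 9 transcripts differed widely in level. Per length, in CPM per kilobase of listed length, the mean over the 6 libraries was highest for Reln.d at 109 ± 12.6 (SD over all 6), above 94.6% of the table. Next came Ncor1.b at 46.1 ± 6.58 CPM per kilobase and Thra.c at 22.0 ± 2.79, and the ranges of these 3 over the libraries did not overlap each other. Below them by mean lay Ncor1.a (10.6 ± 7.74 CPM per kilobase), Ncor1.c (6.38 ± 2.26), Hr.c (6.27 ± 2.17), Klf9.b (4.68 ± 3.24), Thra.b (3.40 ± 0.706) and Hr.e (2.36 ± 1.28), where neighbours in the order differed by less than their spread. In normal replicate 3 Ncor1.a reached 25.8 CPM per kilobase, above the highest Thra.c library at 25.1. In form, 7 of the 9 are listed as spliced and 2, Thra.c and Klf9.b, as unspliced. The 3 Ncor1 and 2 Thra transcripts lie on chromosome 10. The spliced Ncor1 models run over 18702 to 42671 bases for a listed length of 378 to 1577 bases, whereas Thra.c covers its 1806 bases without a gap.

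**Figure D1:**
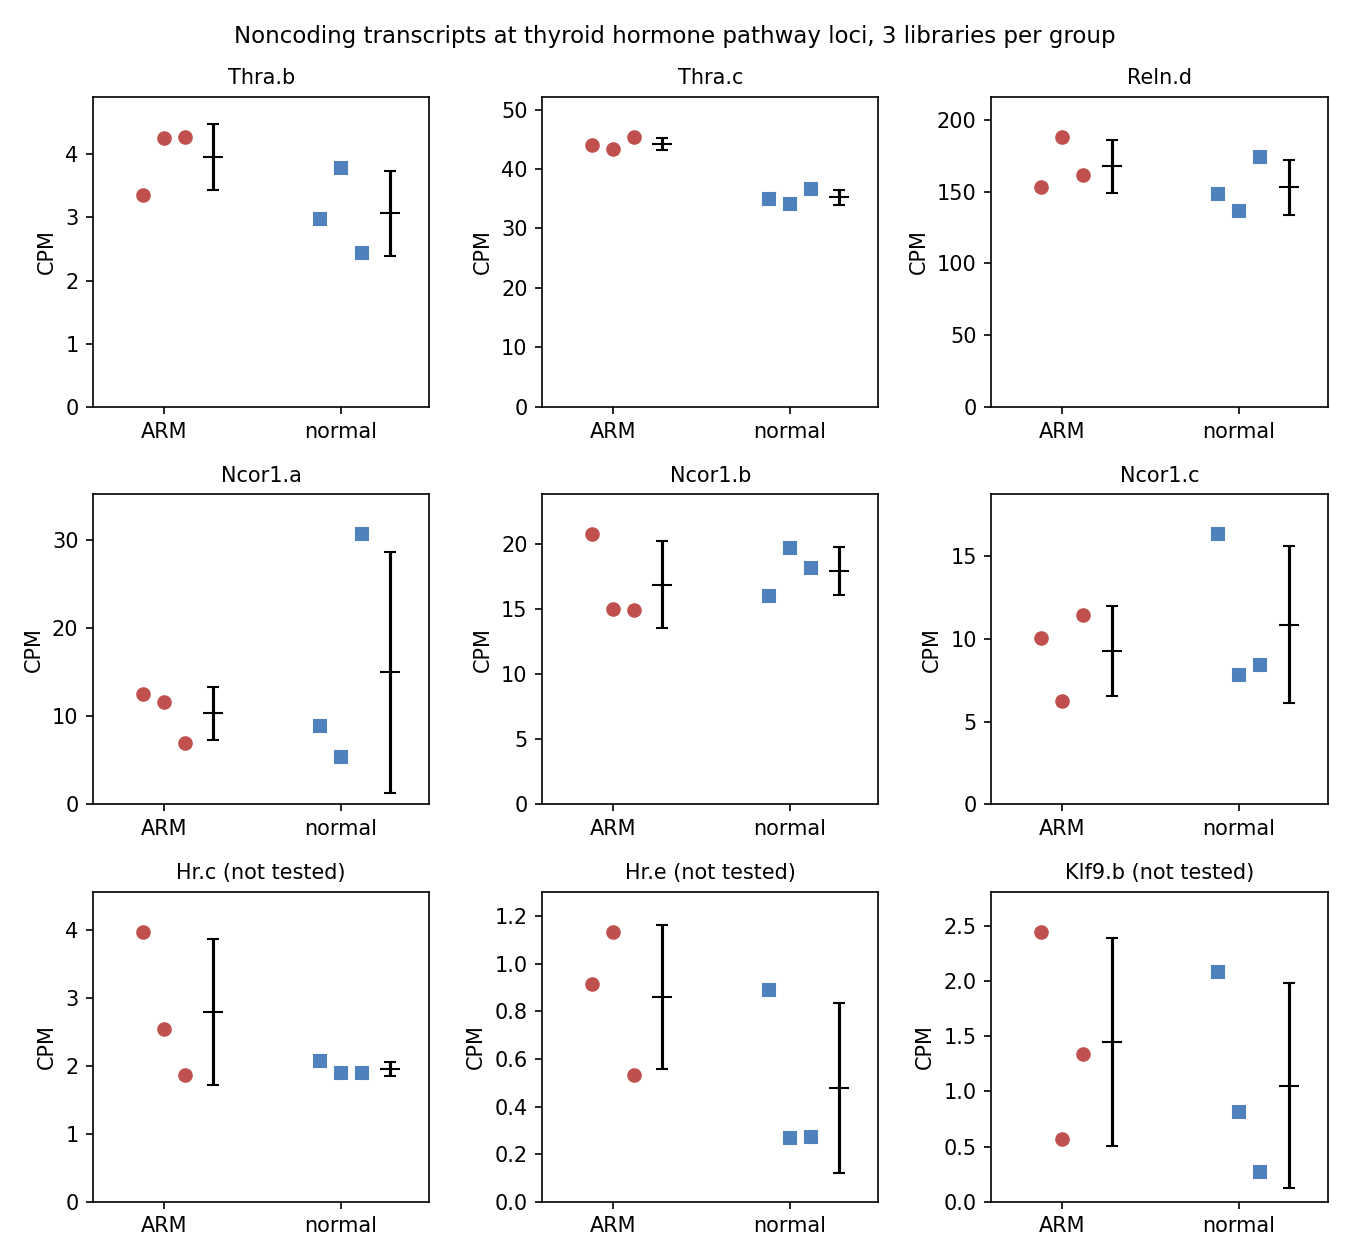
Level of each transcript in CPM (vertical axis, from 0) in the 3 ARM libraries (circles) and 3 normal libraries (squares), with mean and SD at the right of each group. Thra.c has all ARM libraries above all normal ones, at 43.3 to 45.4 CPM in ARM and 34.0 to 36.6 CPM in normal, and Ncor1.a has 1 normal library at 30.7 CPM.

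ARM and normal were compared to ask whether RNA from these loci differs with the ETU-induced phenotype. No transcript of the 5 genes passed. EdgeR's quasi-likelihood test, adjusted over all 13343 tested transcripts, called 16 of them (0.12%) and 0 of the 6 that could be tested here. DESeq2 and limma-voom also called 0 of the 6. At an unadjusted p under 0.05 there was 1 of 6 by edgeR, Thra.c, against a background of 5.98%. Estimates were higher in ARM for 3 of the 6 (Thra.b, Thra.c and Reln.d), against 51.5% of all tested transcripts, and lower for the 3 Ncor1 transcripts, with a median log2 fold change of 0.02, beside 0.01 over all tested transcripts. Klf9.b, Hr.c and Hr.e had too few counts for the test.

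**Figure D2:**
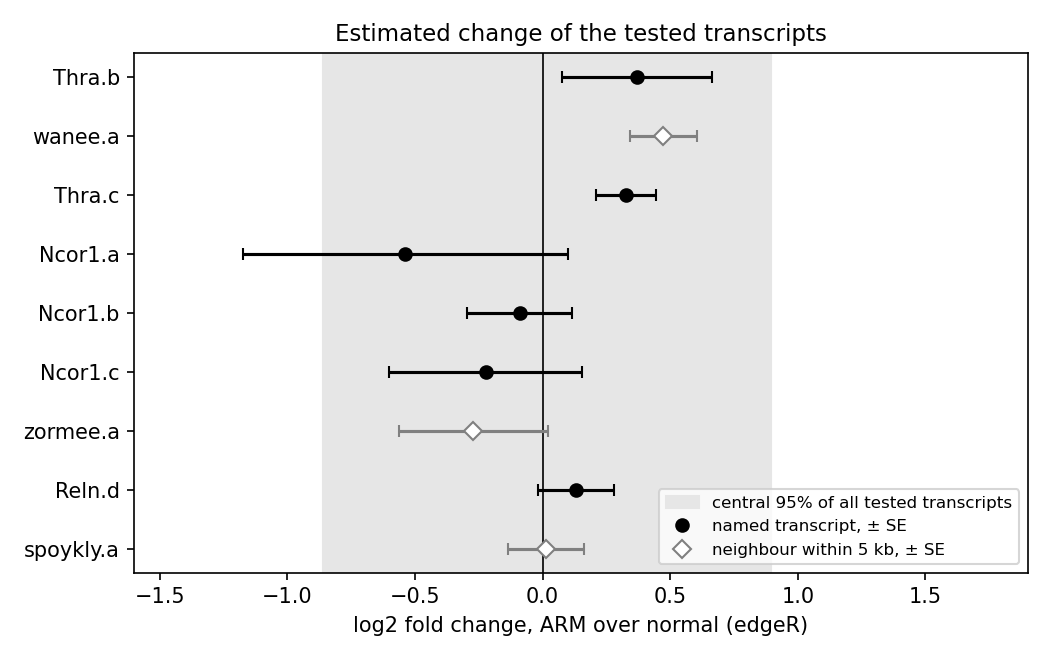
Log2 fold change, ARM over normal, with its standard error for the 6 tested transcripts of these genes (filled circles) and the 3 tested neighbours (open diamonds). The shaded band, -0.86 to 0.89, holds the central 95% of all tested transcripts, and every point lies inside it.

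Thra encodes thyroid hormone receptor alpha, the main receptor of fetal neural tissue. Thra.c (NONRATT004851.2, chromosome 10, 86683130 to 86684935 in the coordinates of the table, whose rat build is not given in the sources used here) had 144, 153 and 170 counts in ARM libraries, against 118, 126 and 135 in normal libraries. Scaled, this was 44.0, 43.3 and 45.4 CPM in ARM and 35.0, 34.0 and 36.6 CPM in normal. Every ARM library was above every normal one, a pattern shown by 7.29% of all tested transcripts. The means were 44.2 ± 1.05 CPM in ARM and 35.2 ± 1.31 CPM in normal (SD, n = 3 each), a log2 fold change of 0.33 (SE 0.12) with an edgeR adjusted p of 0.832 (unadjusted 0.0283). DESeq2 gave a log2 fold change of 0.31 with an unadjusted p of 0.149 and limma-voom one of 0.33 with an unadjusted p of 0.0310. The libraries of a group lay closer together than counting noise, with a coefficient of variation of 2.38% in ARM and 3.71% in normal, where random sampling of reads alone would give 8.01% in ARM and 8.90% in normal.

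The spliced Thra.b (NONRATT004849.2, chromosome 10, 86679580 to 86681097) was far lower, with 11, 15 and 16 counts in ARM and 10, 14 and 9 in normal. Its groups overlapped, since the normal library with 14 counts lay above the lowest ARM library (log2 fold change 0.37, SE 0.29, edgeR adjusted p 0.892). The estimate was 0.23 without normal replicate 3 and 0.54 without normal replicate 2. Of the 6 other transcripts linked to a named one by gaps of at most 5000 bases, a distance chosen after seeing the data, 2 lie here. An unspliced transcript with the locus name wanee (NONRATT004850.2, 86682381 to 86683103) ends 26 bases before Thra.c begins. It had 293, 325 and 411 counts in ARM and 240, 251 and 261 in normal, again with every ARM library above every normal one (log2 fold change 0.47, SE 0.13, edgeR adjusted p 0.832, unadjusted 0.00928). Its level per length, 134 ± 15.3 CPM per kilobase in ARM and 96.7 ± 2.56 in normal (SD, n = 3 each), was above that of Thra.c, at 24.5 ± 0.583 CPM per kilobase in ARM and 19.5 ± 0.723 in normal. On the far side, 1604 bases after Thra.c, Nr1d1.d had 4, 4 and 3 counts in ARM and 2, 1 and 2 in normal, too few for the test. All its ARM libraries lay above the normal ones in CPM, as for 6.17% of the whole table.

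**Figure D3:**
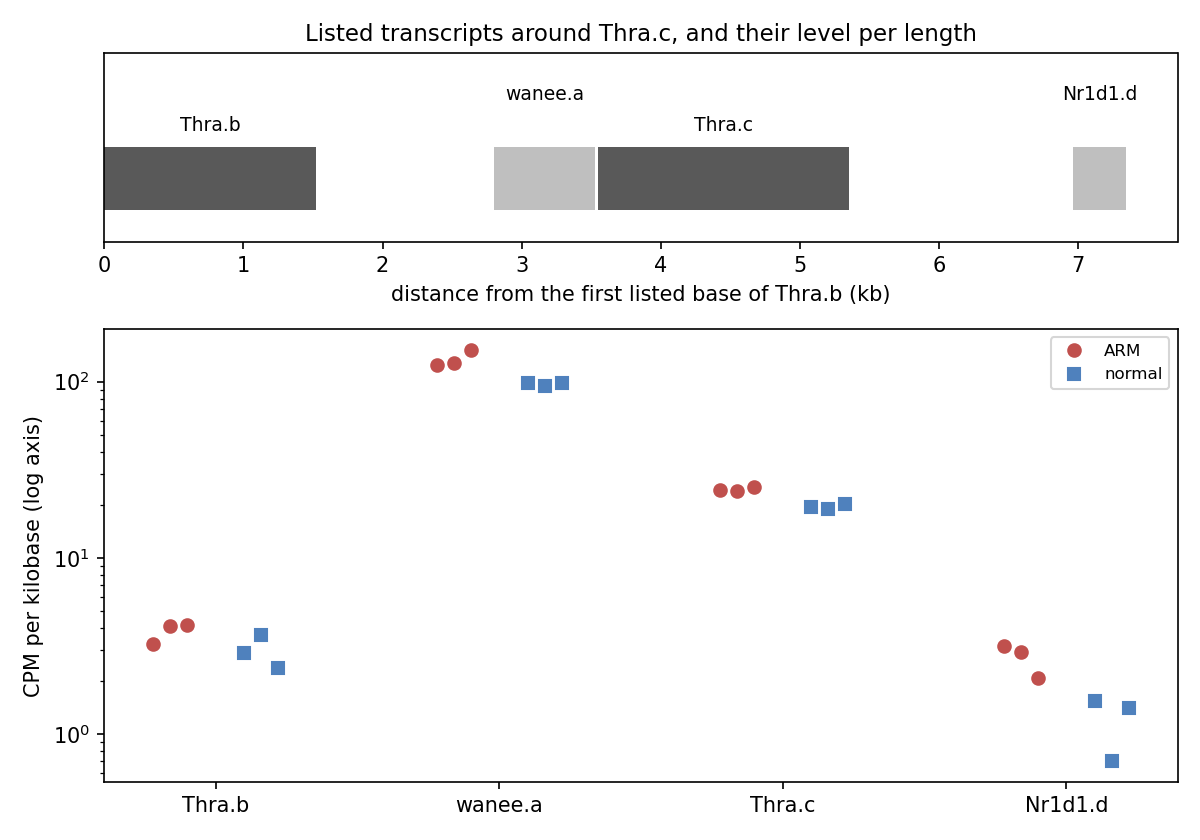
Upper panel, the 4 transcripts listed around Thra.c to scale by distance from the first listed base of Thra.b in kb (dark, at Thra; light, neighbours). Lower panel, their level in CPM per kilobase of listed length on a log axis in ARM (circles) and normal (squares) libraries: for wanee.a, Thra.c and Nr1d1.d all ARM libraries lie above all normal ones, and for Thra.b the groups overlap.

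Summed over these 4 transcripts the region held 452, 497 and 600 counts in ARM and 370, 392 and 407 in normal, or 146 ± 12.1 CPM in ARM and 109 ± 2.44 CPM in normal (SD, n = 3 each). The groups did not overlap, and the share of all blocks with this pattern was not taken (7.29% of single tested transcripts had it). Most counts of the region were those of wanee.a, with 293, 325 and 411 in ARM and 240, 251 and 261 in normal. When all transcripts of the table separated by at most 5000 bases were summed and the 9061 resulting blocks tested, the log2 fold change of this block was 0.41 (SE 0.11, edgeR adjusted p 0.771, unadjusted 0.00675). It was not among the 10 blocks called (0.11%), and 6.4% of blocks had an unadjusted p under 0.05. The counting of reads by strand is not stated, so at this tail-to-tail locus reads from Thra and from Nr1d1 cannot be told apart. Among the cell type lists above, the summed neuronal, microglial and skeletal muscle markers were higher in every ARM library than in every normal one. The sums of the other lists with a transcript overlapped between groups. How often sums show such a separation was not examined. The skeletal muscle sum, of 2 transcripts, was 1.13 to 1.83 CPM in ARM and 0 to 0.543 CPM in normal. The limit of 3 counts set above was 0.776 to 0.875 in normal libraries, from unscaled totals. Every normal skeletal muscle sum lay below it, so for this list the separation rests on very few reads. Of the 6 tested neuronal transcripts 4 had higher and 2 lower estimates (median log2 fold change 0.19). No microglial or skeletal muscle transcript could be tested. Of the 6 tested astrocyte and progenitor transcripts 1 had a higher and 5 a lower estimate (median log2 fold change -0.17). The part of any list in the values of this block was not tested.

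Ncor1 encodes the corepressor that unliganded thyroid hormone receptors recruit. Its 3 transcripts (NONRATT005517.2, NONRATT005518.2 and NONRATT005519.2, chromosome 10, 48707215 to 48772895 together) form 1 locus, in which Ncor1.a overlaps both others. Ncor1.a had 41, 41 and 26 counts in ARM and 30, 20 and 113 in normal. Of the normal libraries 1 was the highest of all 6 and the other two lay within or below the ARM range (log2 fold change -0.54, SE 0.64, edgeR adjusted p 0.923, and 0.53 with adjusted p 0.727 without normal replicate 3). Ncor1.b had 68, 53 and 56 counts in ARM and 54, 73 and 67 in normal (-0.09, SE 0.21, edgeR adjusted p 0.963, with -0.26 without ARM replicate 1 and -0.01 without ARM replicate 3). Ncor1.c had 33, 22 and 43 counts in ARM and 55, 29 and 31 in normal (-0.22, SE 0.38, edgeR adjusted p 0.944, and 0.17 without normal replicate 1). Both overlapped between groups.

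Summed, the Ncor1 locus had 142, 116 and 125 counts in ARM and 139, 122 and 211 in normal (log2 fold change -0.28, SE 0.22, edgeR adjusted p 0.858 over 11207 loci, of which 0.125% were called, and -0.03 without normal replicate 3). The makeup of the locus was uneven between normal libraries. Ncor1.a took 28.9%, 35.3% and 20.8% of the counts in ARM libraries and 21.6%, 16.4% and 53.6% in normal libraries. Ncor1.b took 46.1% ± 1.59 in ARM and 43.5% ± 14.6 in normal, and Ncor1.c 25.5% ± 7.97 in ARM and 26.0% ± 12.6 in normal (SD, n = 3 each). For each of the 3 shares the group means differed by less than the SD of the normal libraries, which was 20.1 for Ncor1.a. For Ncor1.b they differed by more than the SD of the ARM libraries. Two-sided exact permutation p was 0.9 for Ncor1.a, 0.8 for Ncor1.b and 0.9 for Ncor1.c. How reads in overlapping stretches were divided between the models is not stated, so single Ncor1 values are less certain than their sum. Within 5000 bases of the locus or of a chain of its neighbours lie zormee.a (40, 22 and 39 counts in ARM, 37, 50 and 38 in normal; log2 fold change -0.27, SE 0.29), zeymee.a and blarny.a, the last 2 with 1 to 3 counts per library.

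**Figure D4:**
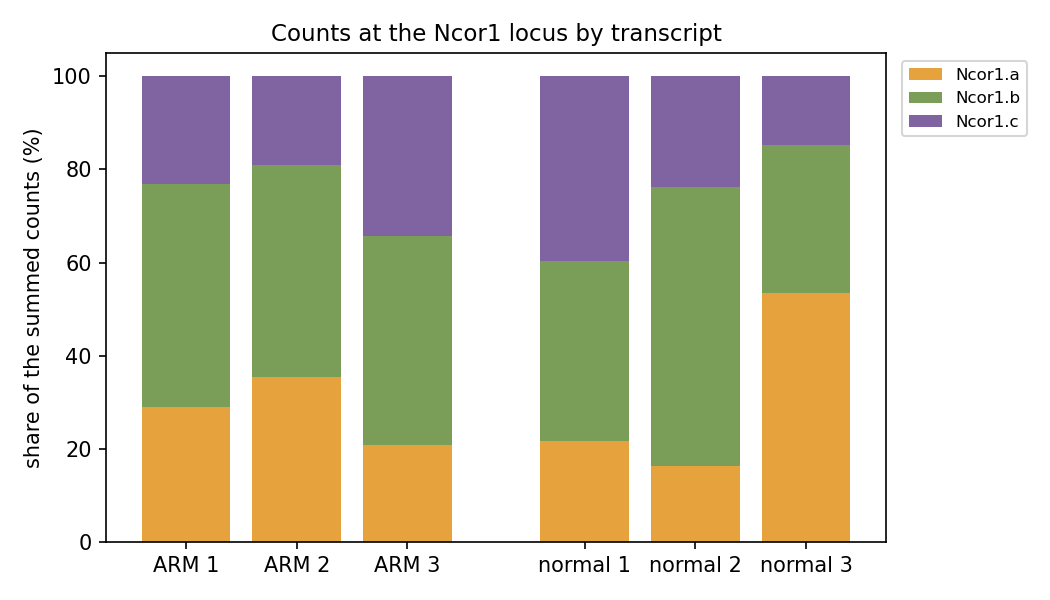
Share of the summed counts of the Ncor1 locus (vertical axis, percent) taken by each of its 3 transcripts in each library, ARM at the left and normal at the right. Normal 3 stands apart, with 53.6% in Ncor1.a, against 16.4% to 35.3% in the other libraries.

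Hr encodes Hairless, a corepressor that binds thyroid hormone receptors and is itself induced by the hormone in brain. Hr.c (NONRATT010574.2, chromosome 15, 52251205 to 52253077) had 13, 9 and 7 counts in ARM and 7, 7 and 7 in normal. Hr.e (NONRATT010575.2, 52254122 to 52255036), 1044 bases further on, had 3, 4 and 2 counts in ARM and 3, 1 and 1 in normal. For both, 1 or more ARM libraries were at the level of a normal one. The ratio of the summed counts, ARM over normal, was scaled by the scaled library totals that CPM uses. It was 1.41 for Hr.c (95% exact binomial interval 0.775 to 2.60) and 1.83 for Hr.e (0.552 to 6.97). Both intervals, which cover counting error only, include no change. As a block of 2 transcripts Hr had 38 counts in ARM and 26 in normal (log2 fold change 0.56, SE 0.37, edgeR adjusted p 0.823). The estimate was 0.31 without ARM replicate 1 and 0.81 without ARM replicate 3.

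Klf9 encodes a zinc finger transcription factor that thyroid hormone induces directly in neurons and oligodendrocytes. Klf9.b (NONRATT001611.2, chromosome 1, 240931494 to 240931760) had 8, 2 and 5 counts in ARM and 7, 3 and 1 in normal, a ratio, scaled in the same way, of 1.39 (95% exact binomial interval 0.597 to 3.35). The counts spread more within each group than between the groups. The unspliced spoykly.a, 846 bases after it, was well covered, with 160, 135 and 155 counts in ARM and 157, 145 and 153 in normal. Its log2 fold change was 0.01 (SE 0.15, edgeR adjusted p 0.994), so at this neighbour the estimate was near 0. A small change in either direction is not excluded. Very low counts of the table were unusually even, since 408 of the 697 transcripts that summed to 6 counts had exactly 1 in each library. Intervals for Klf9.b and the Hr transcripts may therefore not hold the stated coverage.

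Reln.d (NONRATT020157.2, chromosome 4, 9767863 to 9774258) was the most abundant of the 9, with 501, 664 and 605 counts in ARM and 499, 506 and 642 in normal. Scaled to the lncRNA counts of each library this was 153, 188 and 162 CPM in ARM and 148, 137 and 174 CPM in normal. The groups overlapped, as 1 normal library lay above 2 of the ARM libraries. The means were 167 ± 18.3 CPM in ARM and 153 ± 19.2 CPM in normal (SD, n = 3 each), a log2 fold change of 0.13 (SE 0.15, edgeR adjusted p 0.922). The spread between libraries, a coefficient of variation of 10.9% in ARM and 12.6% in normal, was well above the 4.12% in ARM and 4.27% in normal that counting noise alone would give.

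Which library was left out decided how large the Reln.d estimate was. Its log2 fold change was 0.04 without ARM replicate 2, the highest ARM library, and 0.23 without normal replicate 3, the highest normal library, and it was not called in either case (edgeR adjusted p 0.991 and 0.676). For Thra.c it stayed between 0.30 and 0.36 whichever library was left out, and for the neighbour wanee.a between 0.37 and 0.53, with unadjusted p-values of 0.0299 to 0.0930 for Thra.c and 0.0155 to 0.0410 for wanee.a and 0.460 as the smallest adjusted p.

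**Figure D5:**
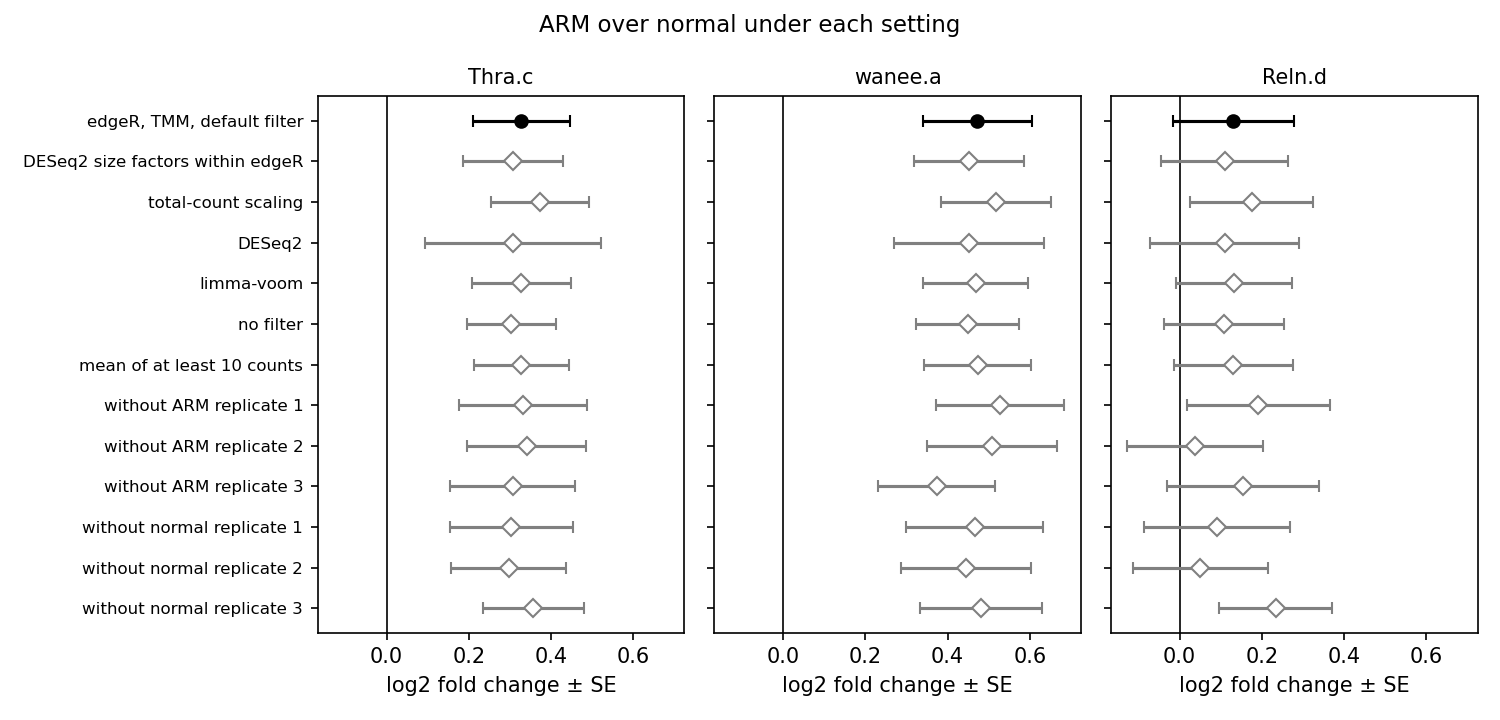
Log2 fold change, ARM over normal, with its standard error for Thra.c, its neighbour wanee.a and Reln.d under the test used (filled circles) and under each alternative (open diamonds, one row each). All estimates are above 0, those of Thra.c lie between 0.30 and 0.37 and those of Reln.d between 0.04 and 0.23.

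Across the 6 libraries, the transcripts whose log2(CPM + 1) followed Reln.d most closely were dasy.a, sneyglor.a and RGD1307983.c (Pearson r = 0.994, 0.990 and 0.990), and 53 of 13078 candidates had r above 0.95. For Ncor1.b they were Smad3.b, werflor.a and flusaw.a (r = 0.980, 0.978 and 0.975). For Thra.c they were NONRATT004804.2 (r = 0.992, 506 CPM in ARM and 388 CPM in normal), MSTRG.25249.1 (0.988, 164 CPM in ARM and 3.71 CPM in normal) and NONRATT005249.2 (0.987), none of which passed the edgeR threshold. The neighbour wanee.a was in place 37 (r = 0.955). The 6 libraries differ in phenotype and depth, and every r includes any difference between the groups, so these values only describe likeness.

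Transcripts at other genes of the pathway did not pass either. The 5 pathway lists name 82 genes beyond the 10, of which 30 had 46 transcripts in the table. Of the 29 tested, 0 were called by edgeR, DESeq2 or limma-voom, where edgeR called 0.12% of all tested transcripts. At that share, 0 calls among 29 say little about these genes. At an unadjusted edgeR p under 0.05 there were 0 of 29, against 5.98% of all tested transcripts. Estimates in ARM were higher for 19, against 51.5% of all tested transcripts, and lower for 10. Their median log2 fold change was 0.07, beside 0.01 over all tested transcripts. The receptor and partner list, which includes Thra, had transcripts of 3 of its 7 genes and 3 tested, all with higher estimates. Of its transcripts at genes other than Thra, only Rxra.b was tested, at the gene of a retinoid receptor that pairs with thyroid hormone receptors, and it had 22, 16 and 26 counts in ARM and 22, 25 and 17 in normal (log2 fold change 0.02, SE 0.29). Of the genes for hormone transport and deiodination, 1 of 13 had transcripts, Slc3a2, the heavy chain of amino acid transporters that also carry thyroid hormone. Slc3a2.f had 36, 35 and 35 counts in ARM and 37, 39 and 30 in normal (0.03, SE 0.21), and Slc3a2.e a log2 fold change of 0.09 (SE 0.44).

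Of the coregulator list, which includes Ncor1, 13 transcripts were tested, 7 with higher and 6 with lower estimates and 0 called. Ep300.a, at a coactivator acetyltransferase gene, was the most abundant, with 1106, 1364 and 1358 counts in ARM and 1111, 1176 and 1465 in normal (0.06, SE 0.13). Ncoa1.e, at the gene of a steroid and thyroid receptor coactivator, was at 11.3 ± 1.76 CPM in ARM and 9.17 ± 1.46 CPM in normal (0.29, SE 0.23). Hormone-responsive genes, a list that includes Reln, Klf9 and Hr, had 7 transcripts tested, 5 with higher and 2 with lower estimates and 0 called. Homer1.a, at a postsynaptic scaffold gene, was at 59.8 ± 6.03 CPM in ARM and 61.2 ± 0.149 CPM in normal (-0.03, SE 0.13).

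Of the Reelin pathway, 11 transcripts were tested, 6 with higher and 5 with lower estimates and 0 called. Pafah1b1.c, at the gene of the dynein regulator LIS1 that acts in neuronal migration, had 2555, 2698 and 2871 counts in ARM and 2523, 2652 and 3278 in normal (-0.03, SE 0.11). Nde1.b, at the gene of a LIS1 partner, was at 19.5 ± 9.35 CPM in ARM and 25.2 ± 12.4 CPM in normal (-0.37, SE 0.52). Of the genes that make thyroid hormone in the gland only Pax8, which the spinal cord also expresses, had a transcript (Pax8.b, 0.29, SE 0.22).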

How the data were processed

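The lncRNA table deposited by the authors holds, per the file headers, a raw count of each transcript for 3 ARM and 3 normal libraries. CASAVA 1.8, Cufflinks 2.1.1, Cuffdiff and TopHat2 2.0.9 appear in the submitters' processing notes without a role, beside a mouse build, whereas identifiers are of rat. No source used here gives the counting tool, strand setting or rat build. Transcript lengths are as the authors list them. ARM columns were matched to samples by heading, and normal columns to the group alone, so their numbers are only names. Since a column tied to a group alone can serve 1 measure, counts were taken and the table's 6 columns of FPKM were left aside, as was the miRNA table.

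Members are transcripts whose locus name up to the first dot is one of the 10 genes. Members and lists were chosen with earlier results of these data known. The count test was edgeR's quasi-likelihood fit (version 4.0.16, R 4.3.3) on phenotype alone, after its default expression filter and TMM scaling, with Benjamini-Hochberg adjustment over all tested transcripts and a threshold of 0.05. CPM uses the TMM-scaled totals, except for the floors of 3 counts, which use the unscaled totals. Standard errors were derived from the F statistic. The same fit was run on counts summed over overlapping transcripts and, added after seeing the data, over transcripts within 5000 bases of each other. Alternatives were DESeq2 1.42.0, limma-voom 3.58.1, other scalings and filters, a threshold of 0.1 and each library left out. Shares and library measures had exact permutation tests. Ratios of summed counts were scaled by the TMM-scaled totals and have 95% Clopper-Pearson intervals, and these and the floors of 3 counts cover counting error only. The edgeR step was tested on simulated data with changes larger than any estimated for the members, so that test does not show whether small changes would be found.

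All members were to be described, with transcripts near them. For the most abundant tested transcript per gene, the 3 tested transcripts with a mean of at least 10 counts and the highest Pearson r were named, and from each pathway list the called transcripts or else the 2 with the highest mean. Some transcripts that this rule or the lists cover are not reported here.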

Additional observations from a re-analysis of the deposited data

How the results depend on the processing

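No transcript, locus or block of the 5 genes was called under any alternative run: DESeq2, limma-voom, DESeq2 size factors, total-count scaling, no filter, a mean of at least 10 counts, a threshold of 0.1 and each library left out (blocks were run only with libraries left out). The median over all transcripts moved by under 0.1 between scalings. The log2 fold change of Thra.c was 0.30 to 0.37 over 6 alternatives and 0.30 (without normal replicate 2) to 0.36 (without normal replicate 3) with a library left out, where its unadjusted edgeR p was 0.0299 to 0.0930. Reln.d gave 0.11 to 0.18, and 0.04 (without ARM replicate 2) to 0.23 (without normal replicate 3) with a library left out.

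The number of transcripts called over the whole table, 16, was 46 with DESeq2, 9 without a filter and 19 to 29 with a library left out (29 without ARM replicate 1), and that of loci, 14, was 24 with DESeq2, 9 with limma-voom, 5 without a filter and 11 to 18 with a library left out. Blocks, 10 called, gave 8 to 14. The cause of these moves was not tested.

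Leaving out a library turned the sign of Ncor1.a (-0.94 to 0.53), Ncor1.c (-0.42 to 0.17) and the block of Klf9.b and spoykly.a (-0.10 to 0.10). The ARM minus normal difference in share of the Ncor1 locus, in percentage points, was -2.17 for Ncor1.a (-9.23 to 9.35 with a library left out), 2.65 for Ncor1.b (-3.22 to 10.8) and -0.48 for Ncor1.c (-6.13 to 6.30). Per kilobase of transcript these differences were -2.78, 3.40 and -0.62. No paired analysis was possible because the headings of the normal columns differ from the labels and were tied to the group alone, so their numbers do not pair them with ARM libraries. The alternative on the FPKM columns was not run. Counts limit Klf9.b, Hr.c and Hr.e, at 5 to 29 counts per group.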
